A study of Mus musculus with 2 samples.

Results

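Of 20286 mouse protein-coding genes with a known strand, 556 had called peaks of histone H3 trimethylated at lysine 4 (H3K4me3) close behind their annotated 5' end. No peak of either replicate was called on that end or close in front of it. These 556 genes are 2.74% of the 5' ends, with a 95% Wilson interval of 2.52% to 2.97% that covers counting error only. A 5' end was included when no peak of either replicate covered it, a peak of each replicate began within 1000 bp downstream along the gene, and no peak of either replicate lay within 1000 bp upstream. These genes were thus chosen by the peak positions, and distances, values and widths of the peaks are given as description. An absent peak is not an absent mark, since a mark under the authors' threshold would not be called. The authors' pooled peak set covered 17 of the 556 5' ends and their replicated set 15.

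The series holds 2 samples of 1 group, biological replicates 1 and 2. They come from MEL, an immortal line of mouse erythroleukaemia (transformed red cell precursors), kept in 2% dimethyl sulphoxide (DMSO) for 5 days. No untreated cells were analysed here, so nothing below is a response to DMSO. H3K4me3 was mapped by ChIP-seq, in which chromatin is precipitated with an antibody and its DNA sequenced.

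H3K4me3 is deposited by the SET1 and MLL methyltransferase complexes where RNA polymerase II starts transcription, and its peaks usually sit on both sides of an active start. The nucleosomes just inside the gene often carry the strongest mark, while the start itself is depleted of nucleosomes. In mammals the mark is most regular at promoters rich in CpG dinucleotides, to which subunits of these complexes bind. A gene with several promoters can be marked at an inner start while its outermost annotated 5' end is silent.

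Replicate 1 had 48026 peaks and replicate 2 had 46950, with median widths of 458 and 437 bp. The peak lists hold no read counts, so depth is unknown. Each peak carries the authors' enrichment value, whose scale is not stated, with a median of 5.51 in replicate 1 and 5.31 in replicate 2. Of the erythroid marker genes with a strand, 11 of 12 had a peak within 1000 bp of the 5' end, Gata1 being the exception, against 1 of 6 myeloid, 0 of 5 lymphoid, 1 of 3 stromal and 0 of 3 epithelial markers. All positions are 1-based on mm10 (GRCm38) unless mm9 is named.

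Among the 20286 5' ends, 128 (0.631%) were the mirror image, marked upstream only. Peaks flanked but did not cover 2720 (13.4%), and peaks of both replicates covered 4204 (20.7%). A peak of a single replicate covered 2185 (10.8%), 358 (1.76%) fell in other arrangements and 10135 had no peak of either replicate within 1000 bp. Of the 10151 5' ends with any peak that near, those marked only downstream made up 5.48%.

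The arrangement is shown by the promoters of 3 genes whose listed RefSeq start is the 5' end itself. Each sequence runs from 250 bp before to 50 bp after the start on the gene strand, is taken from RefSeq (GRCm38.p6) and has every CpG in capitals. Gfi1b encodes a transcriptional repressor needed for red cells and megakaryocytes, Ifi35 an interferon-induced protein and Zfp710 a zinc finger protein. They stand at chr2:28621933-28622232 (minus strand), chr11:101448162-101448461 (plus strand) and chr7:80024564-80024863 (plus strand).
Gfi1b: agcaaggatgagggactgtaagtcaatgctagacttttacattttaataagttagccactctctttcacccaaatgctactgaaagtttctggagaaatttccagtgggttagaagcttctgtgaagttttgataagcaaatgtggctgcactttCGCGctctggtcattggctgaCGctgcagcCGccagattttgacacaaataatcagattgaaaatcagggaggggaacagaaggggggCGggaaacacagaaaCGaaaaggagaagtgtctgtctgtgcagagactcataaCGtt
Ifi35: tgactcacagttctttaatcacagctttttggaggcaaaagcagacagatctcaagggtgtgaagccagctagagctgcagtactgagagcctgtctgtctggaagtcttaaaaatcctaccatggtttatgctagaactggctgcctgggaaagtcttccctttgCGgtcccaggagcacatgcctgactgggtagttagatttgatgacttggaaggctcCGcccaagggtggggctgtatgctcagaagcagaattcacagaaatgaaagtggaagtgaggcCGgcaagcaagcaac
Zfp710: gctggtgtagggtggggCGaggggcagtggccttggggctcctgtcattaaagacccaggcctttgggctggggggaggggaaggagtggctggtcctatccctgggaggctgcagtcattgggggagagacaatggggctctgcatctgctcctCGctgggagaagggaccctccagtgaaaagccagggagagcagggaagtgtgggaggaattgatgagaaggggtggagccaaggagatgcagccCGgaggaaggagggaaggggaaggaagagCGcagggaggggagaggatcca
The Gfi1b promoter held 7 CpGs, Ifi35 3 and Zfp710 4. As observed over expected CpG, the count relative to that given by the C and G content, these are 0.492, 0.165 and 0.170. In Gfi1b the mark of replicate 2 began 22 bp after the start, within the printed 50 bp, and that of replicate 1 began 44 bp after it. In Ifi35 the mark began 6 bp after the start in replicate 2 and 8 bp after it in replicate 1. Zfp710 lies at the far limit, with the first marked base at 988 bp in replicate 1 and 993 bp in replicate 2, far outside the printed stretch.

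A different kind of case is shown by a pair of genes whose nearest listed RefSeq start lies inside the gene. Polm encodes DNA polymerase mu, an end-joining polymerase, and Uros encodes uroporphyrinogen III synthase, an enzyme of heme synthesis. Their listed starts stand 816 bp and 1172 bp inside the gene's 5' end, and peaks of both replicates covered both listed starts. The sequences around these inner starts are at chr11:5837967-5838266 and chr7:133709246-133709545, both on the minus strand.
Polm: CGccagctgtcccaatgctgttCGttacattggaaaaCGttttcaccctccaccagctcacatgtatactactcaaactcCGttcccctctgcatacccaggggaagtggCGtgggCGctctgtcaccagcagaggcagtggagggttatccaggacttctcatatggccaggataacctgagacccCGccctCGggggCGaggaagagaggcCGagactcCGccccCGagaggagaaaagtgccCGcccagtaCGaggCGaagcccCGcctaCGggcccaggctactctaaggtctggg
Uros: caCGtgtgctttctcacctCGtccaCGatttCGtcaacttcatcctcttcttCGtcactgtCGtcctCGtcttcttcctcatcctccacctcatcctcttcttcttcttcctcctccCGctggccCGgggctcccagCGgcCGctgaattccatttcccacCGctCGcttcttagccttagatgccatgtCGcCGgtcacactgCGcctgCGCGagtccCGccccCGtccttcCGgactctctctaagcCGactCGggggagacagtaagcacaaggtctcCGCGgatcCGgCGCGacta
Polm had 17 CpGs here (observed over expected 0.625) and Uros 28 (1.16), more than any of the 3 promoters printed before them. Both strands were searched for TATAAA (the TATA box), for CCAAT (the CCAAT box), for GGGCGG (the core of the GC box) and for CACCC (the letters of many erythroid promoters). The same was done for 4 GATA forms, which are AGATAA with its variant AGATAG, and likewise TGATAA with its variant TGATAG. Of the GATA forms and of the 5 printed promoters, only Gfi1b held a match, the letters TGATAA at -120 to -115 from the start. GGGCGG occurred in Gfi1b, Ifi35, Polm and Uros, at -10 to -5 in Gfi1b. A match is a run of letters and was not tested as a binding site.

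The rule kept only 5' ends with a first peak within 1000 bp, so the distances below depend on that limit. The median of the replicate means was 279.75 bp, but 153 bp with a window of 500 bp and 499.75 bp with 2000 bp. The median distance to the first marked base was 307 bp in replicate 1 and 257 bp in replicate 2 (282 ± 35.4 bp, mean of the medians, SD, n = 2). Of the 556 5' ends, 79 (14.2%) had a mean distance up to 50 bp, 63 up to 100 bp, 116 up to 250 bp, 131 up to 500 bp and 167 (30.0%) beyond that. The counts were highest next to the 5' end and spread thinly out to the limit.

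The replicates placed the edge alike for many genes, with a median difference of 44 bp and 298 of 556 within 50 bp of each other. Across genes, which are not independent replicates, the distances had a Pearson r of 0.899 and a Spearman rho of 0.883. The rule keeps only genes whose edges lie within 1000 bp in both replicates, so this agreement follows in part from the choice. Within this class, the summit of the strongest downstream peak lay a median 840.5 bp inside the gene in replicate 1 and 870.5 bp in replicate 2, and the far edge of the marked stretch at 1908 and 1922.5 bp. The nearest peak upstream was a median 19166 bp away (quartiles 7003.5 and 42165 bp), and 454 5' ends (81.7%) had none within 5000 bp. On the upstream side, then, most of these genes faced long stretches without a called peak and not a peak just past the limit. For the 128 5' ends marked only upstream, the corresponding first distances were 485 and 425.5 bp.

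**Figure D1:**
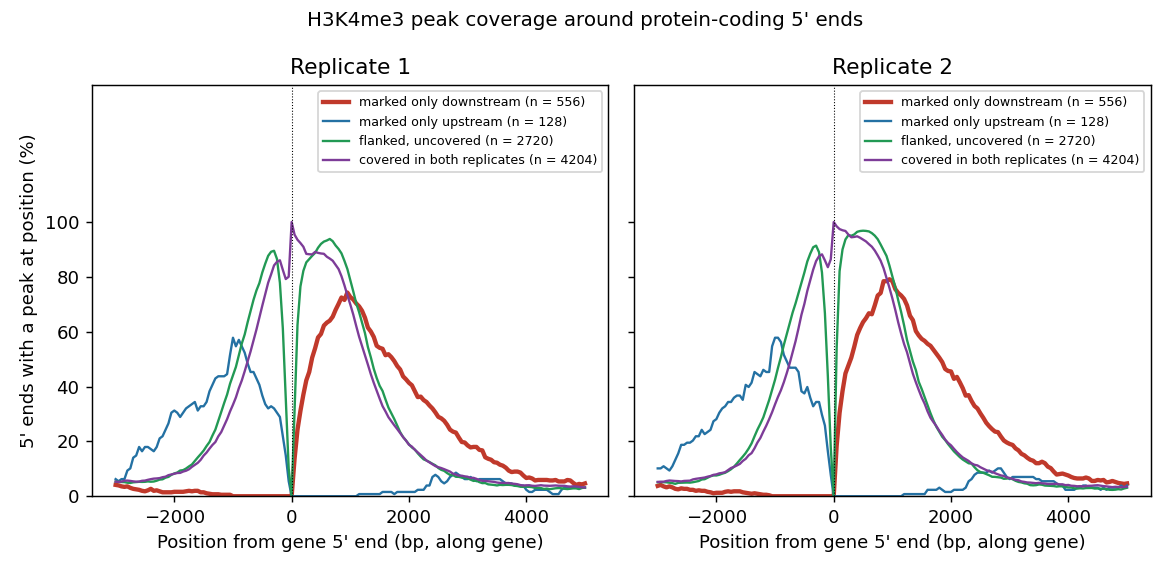
Share of 5' ends (%, vertical axis) with an H3K4me3 peak at each position along the gene (bp, horizontal axis), in replicate 1 (left) and replicate 2 (right), for the 4 classes in the legend. The curve of 5' ends marked only downstream reaches 74.3% in replicate 1 and 79.1% in replicate 2 at 950 bp, while flanked 5' ends reach 93.8% at 650 bp and 96.8% at 500 bp. The rule sets the empty stretches on either side of position 0.

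**Figure D2:**
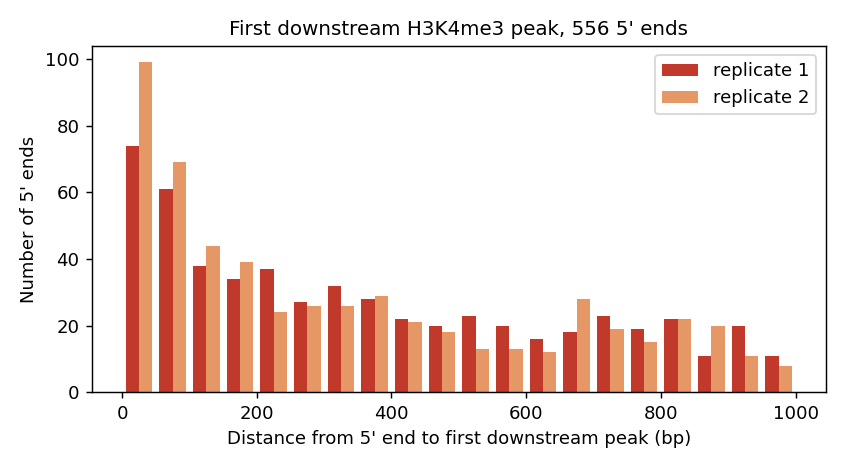
Number of the 556 5' ends (vertical axis) by distance from the 5' end to the first marked base (bp, horizontal axis, bins of 50 bp), with the replicates as paired bars. The first bins hold the most 5' ends in both replicates, and counts stay low but above 0 up to 1000 bp.

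At the downstream limit, the members just inside were Lpin3 with its farther replicate at 1000 bp, Dbn1 at 996 bp and Tars2 at 995 bp. Just outside stood Ccdc15 at 1003 bp, Rab21 at 1005 bp and Ago3 at 1006 bp. At the upstream limit, the nearest upstream peak stood at 1009 bp for Pip5k1c, 1019 bp for Gng3 and 1049 bp for Cnih4, all inside. It stood at 969 bp for Jund, 961 bp for Tbc1d10b and 961 bp for Slc48a1, which were left out. No gap separates the class from its neighbours at either limit.

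The strength of the downstream peaks lay between that of the mirror class and that of ordinary marked promoters. The median enrichment value of the strongest peak was 8.92 in replicate 1 and 10.8 in replicate 2 (9.87 ± 1.34, SD, n = 2). It was 5.84 ± 0.469 at 5' ends marked only upstream, 13.1 ± 0.397 at flanked and 13.2 ± 1.12 at covered 5' ends (SD, n = 2 each). Flanked and covered 5' ends have peaks on both sides or over the start, whereas the rule leaves 1 side in the other 2 classes. Part of this contrast may therefore follow from the choice. The values of single genes, as replicate means, ran from 2.50 to 28.3 with quartiles of 6.90 and 13.1. In both replicates 32 members stood above 15 and 28 below 4. Replicate 1 was the higher of the pair in 169 of 556 members, and the values differed by more than 2-fold in 52. Pearson's r across genes was 0.624, so the ranking of single genes by value is not firm.

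Marked stretches, meaning peaks joined across gaps of up to 1000 bp, had a median width of 1551 ± 18.03 bp (mean of the replicate medians, SD, n = 2). They were 689 ± 93.0 bp at 5' ends marked only upstream, 2438.5 ± 28.3 bp at flanked and 2241 ± 1.06 bp at covered 5' ends. A stretch at a flanked or covered 5' end can join peaks from both sides. The rule leaves only 1 side in the downstream and upstream classes, so part of this contrast follows from the choice. Single members ran from 147.5 to 7036 bp, and 66 were wider than 3000 bp. Median gene length was 22047.5 bp, against 18255 bp over all genes. It was 23562.5 bp at flanked, 19946 bp at covered, 24583 bp at 5' ends covered in 1 replicate, 14702.5 bp at those marked only upstream and 14189 bp at unmarked ones. Such length is thus not particular to the class.

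**Figure D3:**
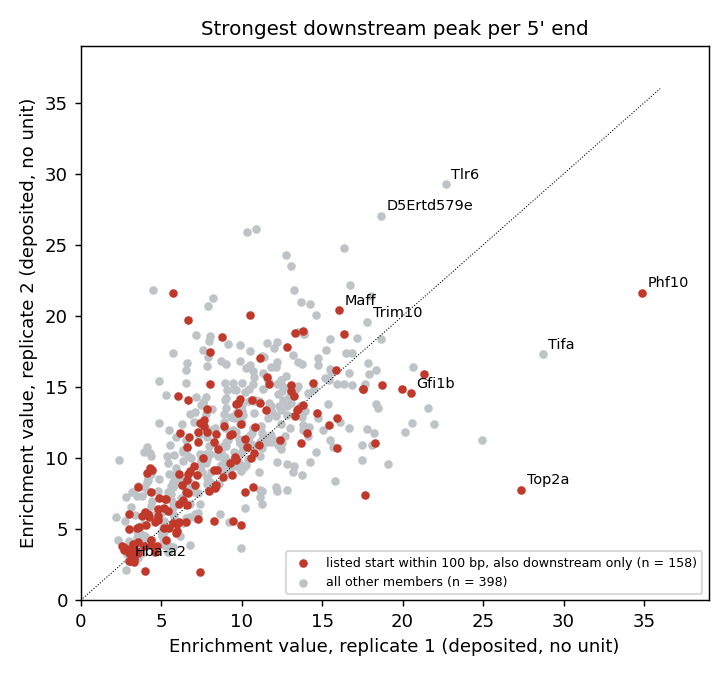
Enrichment value of the strongest downstream peak of each of the 556 5' ends in replicate 1 (horizontal axis) and replicate 2 (vertical axis), as deposited and without a stated scale, with the diagonal as equal values. Red points are the 158 members whose listed start within 100 bp was also marked only downstream, and grey points the other 398. More points lie above the diagonal than below it, and Top2a stands far below with 27.4 in replicate 1 and 7.77 in replicate 2.

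The highest values were those of Phf10, a subunit of the PBAF chromatin remodelling complex, at chr17:14944994-14961260 (minus strand). It had 34.9 in replicate 1 and 21.6 in replicate 2 (28.3 ± 9.38, SD, n = 2), the order in which all pairs of values follow, starting 319 and 26 bp inside the gene. Tlr6, a receptor for bacterial lipopeptides, had 22.7 and 29.3, starting at 490 and 475 bp. Tifa, an adaptor of NF-kB signalling, had 28.7 and 17.3, starting at 791 and 685 bp. All 3 were above the third quartile of the class (13.1) in each replicate, but their replicates differed by more than the gaps between them, so their order is not settled.

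Next came D5Ertd579e with 18.7 and 27.1, and Pdss1, an enzyme of coenzyme Q synthesis, with 16.3 and 24.8. Dek, a chromatin protein, had 18.1 and 21.4, and Clasp2, which binds microtubule plus ends, had 16.8 and 22.2. The listed starts of these genes differed in position: it was the 5' end itself for Phf10, and lay 10894 bp inside for Tlr6, 997 bp for Tifa, 711 bp for D5Ertd579e, 1140 bp for Pdss1, 1309 bp for Dek and 1396 bp for Clasp2.

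Of the other highest genes, Trim10, a TRIM protein of maturing red cells, had 17.8 in replicate 1 and 19.6 in replicate 2, starting 27 and 37 bp inside. Mterf1b, a mitochondrial transcription factor, had 21.3 and 15.9, and Maff, a small Maf transcription factor, had 16.0 and 20.4. The replicates of Pgs1, which makes a precursor of cardiolipin, were close, at 18.7 and 18.4. Ankrd17, an ankyrin repeat protein, had 20.6 and 16.4. Other genes of this rank were uneven, namely Dusp8 (a MAP kinase phosphatase) with 12.8 and 24.3, Comp (a cartilage matrix protein) with 10.9 and 26.1, and Pcbp4 (an RNA-binding protein) with 13.1 and 23.5.

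The widest marked stretch belonged to Ccnl1, the splicing-linked cyclin L1, with 7400 bp in replicate 1 and 6672 bp in replicate 2 at values of only 6.19 and 4.49. Bbc3, which encodes the pro-apoptotic protein PUMA, had 6162 and 6058 bp, and Nxpe3 had 5965 and 5885 bp. Kdm6a, an H3K27 demethylase, had 6133 and 5651 bp and Kmt2d, an H3K4 methyltransferase, had 5590 and 4936 bp. Myo1c, an unconventional myosin, had 5886 and 5855 bp, and Cipc, a repressor of the circadian clock, 5719 and 5291 bp. Gfi1b, at chr2:28609450-28621982, combined width with strength, with 5326 and 5364 bp at values of 20.5 and 14.6. Only Gfi1b of these 8 had values over 14 in both replicates.

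At the short end the mark stopped a few bases from the 5' end. Polm began at 3 and 1 bp, the RNA-binding protein gene Msi1 at 4 and 3 bp, and Farsa, a subunit of phenylalanyl-tRNA synthetase, at 4 and 17 bp. Tchp began at 10 and 8 bp, Sppl2a, an intramembrane protease, at 12 and 4 bp, Tcp11 at 13 and 7 bp and Ptprcap at 18 and 2 bp. For such genes a shift of a few bases in the called edge would turn the 5' end into a covered one. If an edge within 100 bp counted as covering, 369 of the 556 would remain.

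At the long end were Lpin3 (1000 and 967 bp), Zfp710, the platelet integrin gene Itgb3 (972 and 987 bp) and Tars2, a mitochondrial threonyl-tRNA synthetase (950 and 995 bp). Trim13 began at 987 and 930 bp, Rnaset2a at 977 and 924 bp and the splicing factor gene Hnrnph1 at 908 and 973 bp. The members of this end differed widely in strength. Zfp710 had values of 13.3 and 14.4, whereas Itgb3 had 3.14 and 2.83.

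How often the gene's outermost 5' end is itself a RefSeq start was examined with the RefSeq promoter table, which the rule did not use and which lists starts for 449 of the 556. The nearest listed start lay within 100 bp of the 5' end in 180 of the 449 (40.1%, Wilson 35.7% to 44.7%). That share was 67.0% at 5' ends marked only upstream, 72.7% at covered, 87.1% at flanked, 75.2% at unmarked 5' ends and 76.4% over all 16293 genes with a listed start. In 103 members (22.9%) the nearest listed start lay farther inside the gene by up to 1000 bp and in 166 (37.0%) by more, with a median offset of 623 bp, against 0 bp over all genes. Thus the outermost 5' end was a listed start less often here than in any of the other classes, by intervals that do not overlap.

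Where the nearest listed start was more than 100 bp away, it or another listed start usually stood in the marked stretch. This held in both replicates for 214 of 269 such members (79.6%), and for 133 (49.4%) a listed start lay inside a single peak of each replicate. Classed at the nearest listed start, the 449 members fell into 173 (38.5%) still marked only downstream, 129 (28.7%) covered in both replicates, 79 (17.6%) covered in 1 replicate, 45 (10.02%) flanked and 23 in the remaining arrangements. Over all genes, 195 of 16293 listed starts (1.20%) were marked only downstream, 23.0% were covered in both replicates, 12.9% covered in 1 replicate and 12.7% flanked.

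Both kinds mixed along the distance scale. The share of members with a listed start within 100 bp of the 5' end was 72.4% where the mark began within 50 bp, 56.6% up to 100 bp, 42.9% up to 250 bp, 27.9% up to 500 bp and 27.9% beyond. Members with the listed start within 100 bp had a median value of 9.39, against 11.3 for those up to 1000 bp inside and 10.4 for those farther in. A predicted transcript model stood among the RefSeq transcripts of 430 members (77.3%), against 60.9% at 5' ends marked only upstream, 60.4% at flanked, 57.5% at covered 5' ends and 53.8% of all genes. Which transcript set the outermost 5' end was not tested.

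A core of 158 members had a listed start within 100 bp that was itself marked only downstream, with a median distance of 181 bp from that start and a median value of 8.82. Phf10, Mterf1b, Maff, Gfi1b, Ifi35, Zfp710, Myo1c, Lpin3 and Trim13 belong to it. So does Top2a, the DNA topoisomerase of dividing cells, which began 32 and 33 bp inside the gene. Top2a was named after its values were seen.

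The older mm9 peak set offers a second call on positions the rule did not use, although the sources used here do not say what it was made from or whether it rests on the same reads. At the 5' ends of the NCBIM37 annotation (GENCODE M1), it covered 341 of 551 members (61.9%, Wilson 57.8% to 65.8%), against 44.7% of all genes. It covered 17.3% of 5' ends marked only upstream, 88.6% of flanked and 93.3% of covered ones. It marked 104 members (18.9%) only downstream, against 1.52% of all genes, and left 99 (17.97%) unmarked. The annotated 5' ends of the builds can differ, and this entered those shares.

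Starts that were the same base in both builds were therefore compared as well, by matching the RefSeq promoter sequence letter by letter to the mm9 genome. Of 176 members matched in this way with a listed start within 100 bp of the 5' end, 70 (39.8%) were marked only downstream in the older set, against 1.18% of all 12320 starts. The older set covered 65 (36.9%), against 47.0% of all starts, marked 0 only upstream and left 40 (22.7%) unmarked. Flanked starts were covered in 91.3% and marked only downstream in 1.51%, covered starts in 98.6% and 0.324%. Of the mirror class, 7.69% were covered and 47.7% marked only upstream. Each one-sided class kept its side in this set in more cases than it lay on the opposite side.

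The older set was also lopsided towards the gene at these starts, but not empty in front of them. Among the 176 matched starts of the class marked downstream only, a peak stood over 0% at -1000 bp, 3.41% at -500 bp, 19.3% at -250 bp, 26.7% at -100 bp and 36.9% at the start. It stood over 61.9% at 500 bp and 59.1% at 1000 bp. At -500 bp the share was 85.5% for flanked and 78.6% for covered starts. Among the genes printed above, the older set covered the 5' end of Gfi1b and Ifi35 in the annotation of that build and left Zfp710 unmarked.

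**Figure D4:**
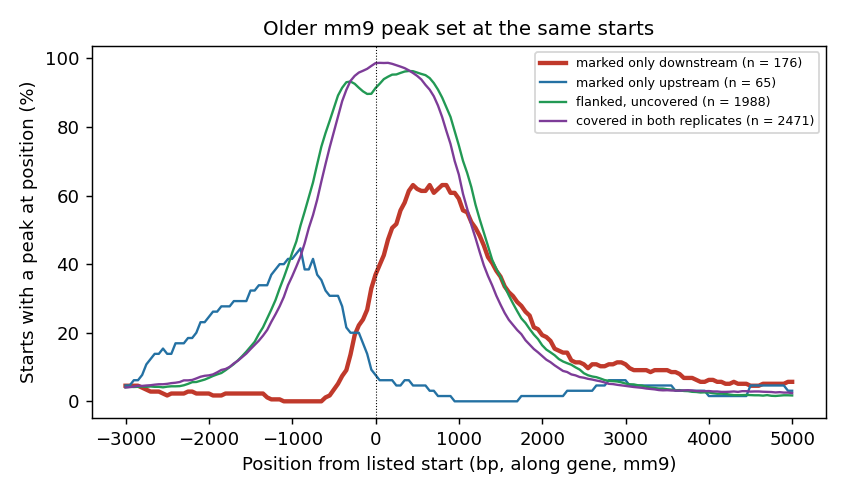
Share of listed starts (%, vertical axis) with a peak of the older mm9 set at each position (bp along the gene, horizontal axis), for starts matched base for base between builds. The curve of starts marked only downstream in mm10 is at 0% at -1000 bp, 36.9% at the start and 61.9% at 500 bp, whereas flanked and covered starts are at 85.5% and 78.6% at -500 bp.

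Where the older peaks had their summits was read from the exons of the NCBIM37 annotation. Of 136 matched members with an older peak in the first 1000 bp, the 1-bp summit of the strongest such peak fell in an annotated exon of the gene in 38 (27.9%), in an intron in 88 (64.7%) and outside the annotated gene in 10 (7.35%). At flanked starts the shares were 20.9%, 41.9% and 37.2%. Summits in front of the start count as outside, and the rule keeps most of these out of the downstream class. Among summits inside the gene, 69.8% of the 126 in the class and 66.7% of the 1209 at flanked starts lay in introns, against 51.8% at covered starts and 60.7% over all genes.

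Another annotated transcript of the gene began inside the older marked stretch in 191 of 551 members (34.7%), against 17.5% of all genes. The share was 4.72% at 5' ends marked only upstream, 34.3% at flanked and 37.8% at covered 5' ends, so the downstream class stood close to flanked 5' ends here. Only starts more than 100 bp inside the gene were counted, so 5' ends marked only upstream could seldom score. Genes unmarked in the older set could not score at all. These were 10537 of all 20140 genes but 99 of the 551 members, so part of the contrast with all genes follows from this. The starts of other genes were counted too. In mm10, the downstream peaks of 38 members (6.83%) covered the start of another gene, on the opposite strand in 36, against 14.8% at 5' ends marked only upstream, 13.6% at flanked and 24.6% at covered 5' ends. The rule leaves out every gene with a peak in the 1000 bp upstream, where divergent neighbours start, so part of this contrast follows from the choice. A protein-coding start was among them in 16 and a long noncoding RNA start in 23. Gfi1b shared its stretch with the noncoding Gm52548 and Uros with the protein-coding Bccip.

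CpG content, which the rule did not use, placed these promoters between ordinary marked and unmarked ones. Over the 300 bp around the nearest listed start, the median observed over expected CpG was 0.689 (95% interval of the median 0.649 to 0.716, n = 449). It was 0.350 at 5' ends marked only upstream, 0.751 at covered, 0.849 at flanked and 0.273 at unmarked 5' ends, and 0.607 over all genes. A ratio of at least 0.6, a usual limit for CpG islands, was reached by 60.4% of members and 50.6% of all genes. The median joins unlike sets, since it was 0.448 where the listed start lay within 100 bp of the 5' end and 0.747 where it lay farther inside.

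On the longer scale the stretch after the start was the richer one in most of the 176 members matched to mm9. All of these had a listed start within 100 bp of the 5' end, so they do not stand for the whole class. Over 1 kb before and after the 176 matched starts in mm9, the median ratio was 0.317 upstream and 0.530 downstream, and the downstream kb was richer in 147 (83.5%). At flanked starts it was 0.586 and 0.712, with the downstream kb richer in 73.3%, and at covered starts 0.489 and 0.644 (72.4%). At starts marked only upstream it was 0.345 and 0.300 (46.2%). Over all genes it was 0.371 and 0.525 (70.5%). The median of the paired differences, downstream minus upstream, was 0.15 in the downstream class, 0.13 at flanked and 0.13 at covered starts and 0.084 over all genes. Whether CpG content bears on where the mark lies was not tested.

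**Figure D5:**
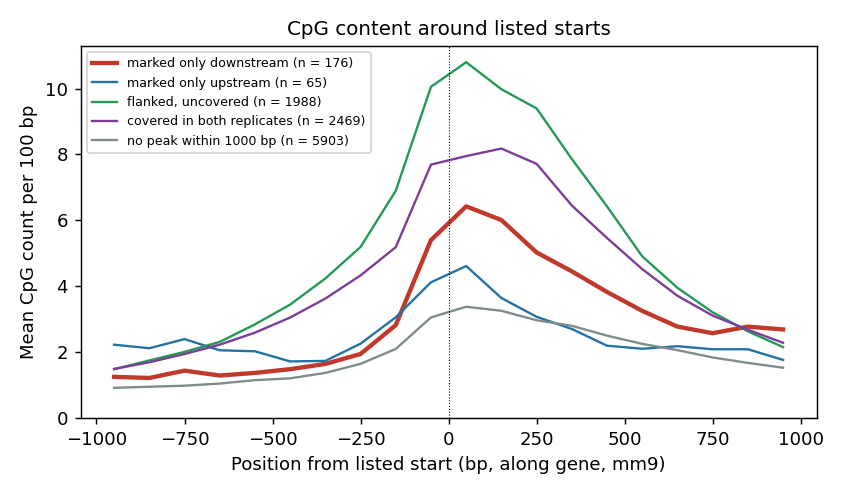
Mean number of CpGs per 100 bp (vertical axis) around listed starts matched to mm9 (bp along the gene, horizontal axis), for the classes in the legend. Starts marked only downstream lie between covered and unmarked starts around position 0, and their median observed over expected CpG is 0.317 in the upstream kb and 0.530 in the downstream kb.

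Short motifs were counted in the same 300-bp promoters. The GC box letters GGGCGG were in 54.8% of members' promoters, against 76.0% at flanked, 61.8% at covered 5' ends and 48.4% over all genes. TATAAA on either strand was in 10.9%, against 5.95%, 6.75% and 13.0% in the same order, and on the gene strand in 7.80%, against 3.63%, 4.05% and 8.74%. CCAAT was in 35.6%, against 49.6%, 36.2% and 39.3%, and CACCC in 65.3%, against 59.9%, 62.8% and 59.1%. Any of the 4 GATA forms was in 19.8%, against 15.9%, 19.7% and 25.9%. As with CpG, these shares join unlike sets. Where the listed start lay within 100 bp of the 5' end (n = 180), GGGCGG was in 45.0%, TATAAA on either strand in 14.4% and a GATA form in 27.2%. Where it lay farther inside (n = 269), GGGCGG was in 61.3%, TATAAA in 8.55% and a GATA form in 14.9%. In the same order, the Wilson intervals of the farther set were 55.4% to 67.0%, 5.76% to 12.5% and 11.1% to 19.6%. These leave out the shares of all genes. The intervals of the nearer set were 37.9% to 52.3%, 10.1% to 20.3% and 21.2% to 34.1%, and they hold the shares of all genes. Only the farther set thus stood apart from all genes in these 3 motifs. Motifs were counted separately, and overlaps between them were not removed.

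Among named gene groups, red cell genes are described first. Of 120 genes in 6 erythroid lists, 13 (10.8%) were marked only downstream, against the 2.74% of all 5' ends. Among those with any peak within 1000 bp it was 13 of 98 (13.3%), against 5.48%. The lists were chosen with earlier results of these data known, so these shares are a description. Each list is short, so its own share, given below, is not firm.

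Of 8 globin genes measured, 2 (25%) belonged to the class, against 2.74% of all 5' ends. Both lay in the alpha-globin cluster and were weak. Hba-a2, an adult alpha-globin gene at chr11:32296492-32297310 (plus strand), had values of 3.005 and 2.75, with its first marked base at 935 and 972 bp. This is past the gene's 3' end, the sole case among the 556. Hbq1a, a theta-globin gene at chr11:32300069-32300873 (plus strand), had 3.29 and 2.71, at 607 and 654 bp. Reads from near-identical alpha-globin copies may be placed on either, and the sources used here do not say how the authors treated them.

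Of 27 genes of heme synthesis and iron, 3 (11.1%) belonged to the class, against 2.74% of all 5' ends and 5.48% of those with any peak within 1000 bp. Uros, at chr7:133686142-133710467 (minus strand), had 12.6 and 14.1, starting 109 and 130 bp inside. Ireb2, which encodes iron regulatory protein 2, had 10.7 and 12.1, at 324 and 362 bp. Steap3, the ferrireductase of the transferrin cycle, was weak, with 3.58 and 4.08, at 158 and 30 bp. The listed start lay 1172 bp inside for Uros and 1097 bp inside for Ireb2, and 1 bp from the 5' end for Steap3.

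Of 26 erythroid transcription factors the 3 members (11.5%, against 2.74% of all 5' ends) were Gfi1b, Sox6 and Mafg. Sox6, a factor that silences embryonic globin in mice, had 9.13 and 11.3, at 16 and 69 bp, with its listed start 2032 bp inside. Mafg, a small Maf partner of Nfe2, had 3.96 and 10.5, at 873 and 856 bp, with its listed start 1408 bp inside. For both, that listed start was covered in 1 replicate, and for Gfi1b the 5' end was the listed start.

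Slc4a1, which encodes the band 3 anion exchanger of the red cell membrane, was the sole member among 28 membrane and surface genes (3.57%). That share is near the 2.74% of all 5' ends and below the 5.48% of those with any peak within 1000 bp. Slc4a1 had 3.97 and 4.51, at 98 and 122 bp, at chr11:102348820-102365281 (minus strand). Stat5a, which acts behind the erythropoietin receptor, was the sole member of 14 signalling genes (7.14%), with 7.83 and 16.5, at 571 and 526 bp. Of 17 genes of late red cell maturation, 3 (17.6%) belonged to the class. Trim10 was joined by Fbxo7, an F-box protein, with 9.29 and 9.25, and by Hectd4, a HECT-domain protein, with 4.51 and 21.8. The replicates of Hectd4 differed so much that its level is not fixed by these data.

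Of 15 megakaryocyte and platelet genes, 2 (13.3%) belonged to the class, against 2.74% of all 5' ends, and 9 had no peak within 1000 bp. Gp9, a platelet glycoprotein, had 5.43 and 3.85 and Itgb3 the low values given above. None of 26 genes of other blood lineages was marked only downstream, 18 of them having no peak within 1000 bp. The base shares were 2.74% of all 5' ends and 5.48% of those with any peak that near. At such shares so short a list can hold none without differing from other genes. Of the erythroid members, Trim10, Gfi1b and Uros had mean values above the third quartile of the class (13.1), as did Hectd4 through replicate 2 alone, while Hba-a2, Hbq1a, Slc4a1 and Steap3 were below the first (6.90).

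Lists of general cell functions also held members. Few of their genes lacked a peak within 1000 bp, namely 2 of 33 cell cycle, 1 of 18 H3K4 methylation and 7 of 95 ribosomal protein genes. The same held for 1 of 19 housekeeping, 3 of 78 mitochondrial ribosomal and 0 of 46 NADH dehydrogenase genes. Their shares are therefore to be read against the 5.48% of 5' ends with any peak that near, and not only against the 2.74% of all. Of 33 cell cycle genes only Ccna2 (3.03%), the S-phase cyclin A2, belonged to the class, with 8.51 and 10.2. Of 18 H3K4 methylases and demethylases only Kmt2d (5.56%) did, with 11.8 and 13.7. Of 95 genes with ribosomal protein symbols there were 7 (7.37%), among them Rpl5 with 18.3 and 11.1, Rplp0, also the sole one of 19 housekeeping genes (5.26%), with 17.7 and 7.42, and Rpl22 with 5.97 and 4.87. Rps27l, a homologue of a ribosomal protein, had 9.71 and 13.3. Rps6ka4 and Rps6kc1 are kinase genes caught by the symbol, with 10.4 and 25.9 and with 7.41 and 10.3. Mitochondrial ribosomal proteins gave 4 of 78 (5.13%), Mrpl45 being the highest with 12.4 and 10.6, and NADH dehydrogenase subunits 0 of 46.

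Histone genes gave 6 of 89 (6.74%), against 2.74% of all 5' ends and 5.48% of those with any peak within 1000 bp. Of the 89, 28 had no peak that near. Among the 6 were 3 replication-dependent H4 genes, each short. In H4c2 the mark began at 391 and 377 bp with values of 5.94 and 4.70. In H4c4 it began at 325 and 314 bp with 5.27 and 7.13, and in H4c17 at 362 and 368 bp with 4.60 and 3.38. H3c14 had 6.78 and 9.09 and the linker gene H1f6 4.35 and 3.89. In H3f3b, which encodes the replacement histone H3.3, the mark began at 788 and 820 bp with 7.12 and 6.07, and the listed start 1535 bp inside was covered in both replicates. H4c2, H4c4, H4c17 and H3c14 belong to families of near-identical gene copies that can share reads, so the split between copies is uncertain.

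Zinc finger genes with Zfp symbols gave 24 of 388 (6.19%), solute carriers 15 of 387 (3.88%) and olfactory receptors 3 of 1100 (0.273%), against 2.74% of all 5' ends. No peak lay within 1000 bp of 124 of these zinc finger genes, 198 of the solute carriers and 1090 of the olfactory receptors. Among all 5' ends with any peak that near, the share was 5.48%. The low olfactory share thus goes with the lack of any peak and says little about the few that had one. Zfp157 (19.9 and 14.9), Zfp747 (13.8 and 19.0) and Zfp971 (14.4 and 15.3) began within 60 bp of a 5' end at or within 18 bp of a listed start. Slc43a3, a transporter gene, was the highest solute carrier with 21.9 and 12.4, and Slc39a3, a zinc transporter gene, the lowest with 3.44 and 3.42. Olfr1509, Olfr59 and Olfr872, receptors of the nasal epithelium, were all below 10 in both replicates. Olfr1509 had 9.45 and 5.56, Olfr59 had 8.27 and 5.55 and Olfr872 had 5.29 and 4.22. Zinc finger members ran from a mean of 3.45 in Zfp652 to 17.4 in Zfp157, which spans most of the range between weak and strong members.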

How the data were processed

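H3K4me3 ChIP-seq peaks of 2 biological replicates of DMSO-treated MEL cells were used. The authors deposited, per the file headers and notes, peaks per replicate called from that replicate's alignments and 2 shared files, a pooled set, a replicated set (all mm10) and an older mm9 set. The signal value of each deposited peak, called enrichment value here, has no stated scale. The deposited p-value and q-value are on a −log10 scale, and the authors' summit offset is in bp. The caller, its threshold and the aligner are not given in the sources used here. No normalization between replicates is stated, so means over replicates take both lists to be on the same scale. Without read counts, precision rests on the replicates (mean ± SD) and on 95% Wilson intervals.

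Gene spans came from a RefSeq table of GRCm38, strand from GENCODE M1 by symbol (18174 genes) or synonym (2112). Of 21887 protein-coding genes, 1601 were left out, 47 of them because the strand contradicted the RefSeq promoter table. A gene has a single 5' end here, the outer edge of its span. Peaks were joined across gaps up to 1000 bp. Listed starts and promoter sequences came from RefSeq (GRCm38.p6) and were matched letter by letter to NCBIM37 for mm9. Named are the 15 members with the highest values, the 8 widest, nearest and farthest, members of 18 gene lists and genes at the limits, some of them by counts alone. Members and lists were chosen with earlier results of these data known. No test was run, because the rule used the peaks and there is 1 group. Classification was tested on simulated peaks. Python 3.11.15, numpy 2.4.6, scipy 1.17.1 and matplotlib 3.10.9 were used.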

Additional observations from a re-analysis of the deposited data

How the results depend on the processing

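The number of 5' ends marked only downstream (556) was within 1.5 times under 11 of the 13 settings that could change it, from 393 to 812. Membership changed more than the count: with the 20000 peaks of highest −log10 p, 739 genes qualified and 382 of them were among the 556. It was 369 when a peak edge within 100 bp counted as covering, and 195 at the nearest listed RefSeq start, of which 173 were shared. The median distance (279.75 bp) was 153 bp with a 500-bp window, 499.75 bp with 2000 bp, 148 bp with the 20000 peaks of highest −log10 p, 216 bp with the replicated set, 466 bp with the 100-bp edge rule, 184 bp at listed starts and 205 to 222 bp with 1 replicate left out. Median value (10.05) was 12.1 with the 20000 peaks. Median width (1572.5 bp) was 1595.5 and 1553 bp with −log10 q of at least 2 and 5, 1406.5 bp with the 20000 peaks, 1473 bp in the replicated and 1516.5 bp in the pooled set, 1727.5 bp with the edge rule, 963.75 and 1860.75 bp with gaps of 0 and 3000 bp, 1528 bp with strand from the promoter table, 1030 bp at listed starts and 1310 to 1447 bp with 1 replicate left out. Coverage in the older set (61.9%) was 56.3% with the 2000-bp window, 67.2% with −log10 q of 5, 81.7% with the 20000 peaks, 56.8% in the pooled set and 54.7% to 63.3% with 1 replicate left out. Other transcript starts in the stretch (34.7%) were 29.8% with the 2000-bp window, 30.4% in the pooled set and 30.3% to 31.9% with 1 replicate left out. Shared starts (6.83%) were 4.83% with the 500-bp window, and median CpG ratio (0.689) was 0.745 with the 20000 peaks and 0.429 at listed starts. Among motif shares, GGGCGG (54.8%) was 64.0% with the 20000 peaks and 42.1% at listed starts, and TATAAA (10.9%) was 7.93% and 14.4%. CCAAT (35.6%) was 43.3% with the 500-bp window. AGATAA (8.91%) was 6.45% with the 20000 peaks and 12.8% at listed starts. At listed starts AGATAG (7.13%) was 10.8% and TGATAA (4.01%) was 8.21%. The other 69 values of the main results and the other 95 motif shares moved by less than their spread or by less than 1.5 times. The cause was not tested. Strand from the promoter table and the listed start were chosen after seeing the data. No paired analysis was possible because there is 1 group. Unknown depth limits what an absent upstream peak means, since a weak mark under the authors' threshold would not be seen.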
